A study of Homo sapiens with 26 samples.

Results

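NCI-H1048, a human small cell lung cancer line that expresses the transcription factor POU2F3, was compared with the other 3 POU2F3-expressing lines of the study, COR-L311, NCI-H211 and NCI-H526, in 8 of the series' 26 RNA-seq libraries. The 8 libraries form 2 sets of 4, with 1 library per line in each set. The parental set holds unmodified cells harvested in exponential growth. The sgNeg set holds cells infected with a lentivirus carrying the control guide RNA sgNeg, harvested on day 4 after infection for NCI-H1048 and NCI-H211 and on day 5 for NCI-H526 and COR-L311. Levels are FPKM, fragments per kilobase of transcript, scaled to the mapped fragments of the library, and differences are on the log2(FPKM + 1) scale, which understates the change of low genes. The 2 sets were never combined in a ratio, because the sgNeg columns stand in 4 tables, 1 per line, that may have been scaled separately.

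A gene was counted when NCI-H1048 lay above the highest or below the lowest of the other 3 lines in both sets. Of 13377 genes with at least 1 FPKM in at least 1 of 4 columns of each set, NCI-H1048 was outside the range in both sets for 4771. It was higher for 2431 genes (18.2%) and lower for 2340 (17.5%). These shares, and those with a gap given next, are the background for every count of list members in the text. The distance from NCI-H1048 to the nearest of the other 3 lines, taken from the set where it was smaller, is called the gap. The gap was at least 1 on the log2 scale for 536 higher genes (4.01%) and 312 lower genes (2.33%), and at least 2 for 188 and 123. A gene under 1 FPKM in the other 3 lines of a set could pass the minimum only through NCI-H1048 and so had to be higher there. This was so for 441 of the 2431 higher genes and 274 of the 536 with a gap of at least 1, whose values are descriptions. It holds for every gene that meets this condition, also where the text does not repeat it. STARD4 and RARB stood just inside a gap of 1 on the higher side (1.001 and 1.002), with MIER3 and LIPG just outside (LIPG at 0.998). On the lower side FAM196B and KIAA1107 stood just inside (KIAA1107 at 1.002), with ANKRD18B and AASDHPPT just outside (0.999 and 0.998).

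POU2F3 is a POU-domain factor that specifies tuft cells, rare chemosensory cells of lung, gut and other epithelia. Tuft cells signal through a taste-like cascade in which G proteins activate phospholipase C, calcium is released through an inositol trisphosphate receptor, and the cation channel TRPM5 opens. Some small cell lung cancers lack neuroendocrine genes and express this tuft cell program, and others express YAP1, a coactivator that binds TEAD factors at genes for matrix and adhesion proteins.

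The labels state that NCI-H1048 was grown in HITES, a serum-free medium. The other 3 lines were grown in RPMI with serum or in HITES without it being stated which, so medium and line cannot be told apart. Depth, estimated from the steps between low FPKM values of genes with 1 annotated transcript, was about 9.6e+06 to 2.98e+07 fragments in the parental libraries and 9.4e+06 to 1.53e+07 in the sgNeg libraries. An FPKM of 1 on a transcript of 2 kb then stands for about 18.7 to 59.6 fragments. Each of the 4 sgNeg libraries was closest to the parental library of its own line among all 14 parental lines, with a Spearman rho across genes of 0.963 to 0.974. Across genes, which are not independent replicates, NCI-H1048 correlated with the other 3 lines at a Pearson r of 0.75 to 0.80 in the parental set and 0.73 to 0.76 in the sgNeg set, while COR-L311 and NCI-H526 correlated with each other at 0.85 and 0.84. Of 18 fibroblast, immune and endothelial marker genes, 4 reached the minimum level. The median difference over the 4 was -0.13 in the parental and -0.11 in the sgNeg set. COL1A1, a fibrillar collagen chain, was at 6.40 FPKM in parental NCI-H1048 and at 0.371 FPKM or less in the other 3 parental lines, and DCN, CD14 and CD68 were not outside the range in both sets. CD3D and MS4A1, which define T and B cells, were listed at 0 in all 8 libraries.

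With 1 library of NCI-H1048 per set, an exact permutation test of 1 line against 3 cannot give a p below 0.25. A limma fit of the 4 parental libraries, in which the lone NCI-H1048 library is assumed to vary like the other lines, called 0 of 13377 genes (0%) in either direction at a Benjamini-Hochberg adjusted p under 0.05. The smallest adjusted p was 0.26, and 457 higher and 319 lower genes had an unadjusted p under 0.05. Simulated data of this design showed how little the fit can detect: of 50 genes shifted by a log2 difference of 6 it called 0. With all 14 parental lines in the limma fit, which share 1 estimate of the spread, 46 genes were called higher (0.344%) and 24 lower (0.179%) in NCI-H1048 than in the other 3 POU2F3 lines. NCI-H1048 was outside the range on the same side in both sets for each of those genes. Of all tested genes above the range in the parental set, 73.7% were above it in the sgNeg set, and 73.6% likewise below. The called genes had large parental differences, and the sgNeg set holds the same 4 lines. Their agreement between the sets is thus largely built in and is no support. For a gene that passed the minimum only through NCI-H1048 the minimum itself also favours the higher side. Of the 46 higher genes, 42 had passed the minimum only through NCI-H1048, so their calls are no support and their p-values are left out. Adjusted p-values below are for the other 4 higher and the 24 lower genes, from this 14-line limma fit, and concern the parental set only. The remaining values are descriptions. The lone NCI-H1048 library adds nothing to the spread of the 14-line fit, which comes mostly from the 10 lines that lack POU2F3. For some genes those lines are near 0, as for BMX (at most 0.259 FPKM) and FAM150A (at most 0.234 FPKM), and vary little. An adjusted p-value from this fit therefore does not measure the spread among the POU2F3 lines alone.

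Values of the other 3 lines are given throughout in the order COR-L311, NCI-H211 and NCI-H526. POU2F3 itself was high in all 4 lines. In the parental set it was at 189 FPKM in NCI-H1048 and at 332, 221 and 387 FPKM in the other 3 lines. In the sgNeg set it was at 198 FPKM against 272, 307 and 501. NCI-H1048 was the lowest in both sets with a gap of 0.23, which did not hold in the parental set after quantile normalization. The 10 other parental lines ranged from 0 to 0.608 FPKM.

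**Figure D1:**
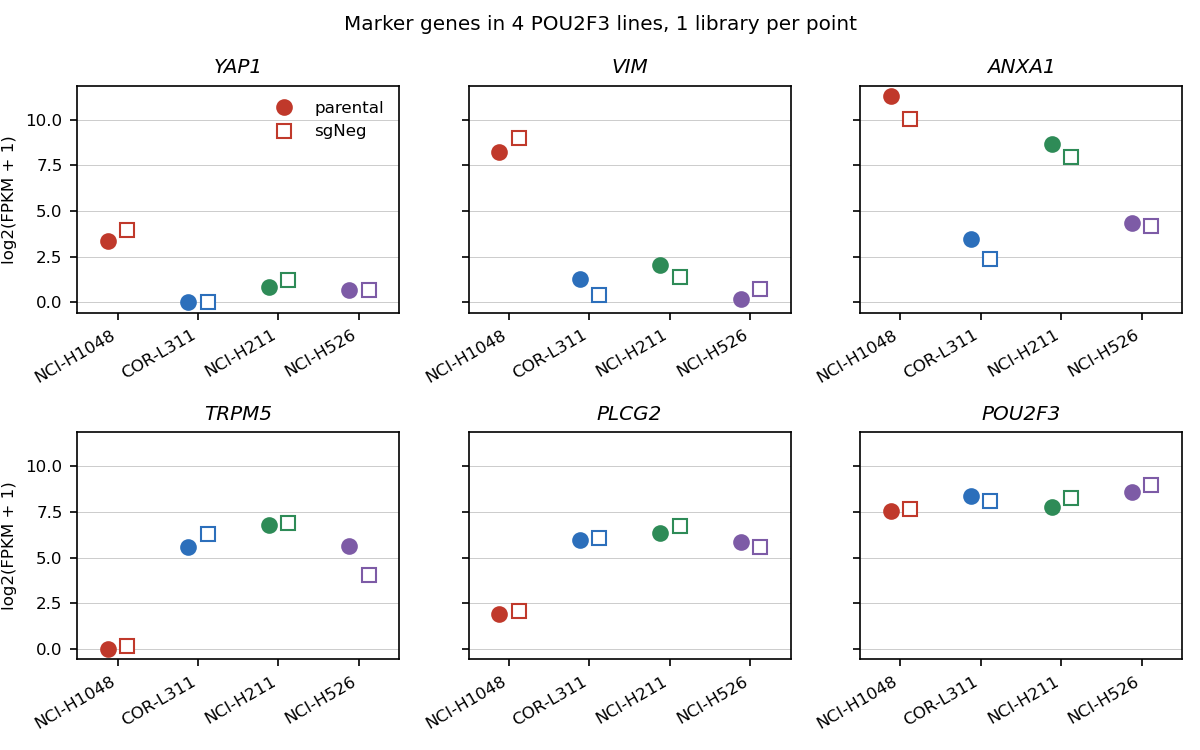
log2(FPKM + 1) of 6 marker genes (vertical axis) in the 4 POU2F3 lines (horizontal axis). Filled circles are parental and open squares sgNeg libraries, 1 library per point; NCI-H1048 is the highest line for YAP1, VIM and ANXA1 and the lowest for TRPM5 and PLCG2 in both sets, while POU2F3 is high in every line.

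Genes of the taste-like cascade and other tuft cell genes were low in NCI-H1048 beside high POU2F3. Of 32 tested tuft cell genes, 12 were lower in NCI-H1048 than in the other 3 lines in both sets and 2 were higher; 9 and 1 of them had a gap of at least 1. The median difference over the 32 genes from the mean of the other 3 lines was -1.56 in the parental set and -1.85 in the sgNeg set, beside -0.03 in both sets over all genes tested. Of 14 tested taste transduction genes, 7 were lower, 5 of them with a gap of at least 1, and 2 were higher. The medians were -1.65 and -2.19. TRPM5 and PLCG2 belong to both lists.

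TRPM5, the channel at the end of the cascade, was nearly silent in NCI-H1048. Its parental level was 0.0127 FPKM against 46.1, 110 and 48.0 FPKM in the other 3 lines, and its sgNeg level was 0.109 FPKM against 78.5, 119 and 15.5. NCI-H1048 lay below the other 3 lines in both sets, as the rule requires (gap 3.89, parental limma log2 difference -5.97). In NCI-H1048 TRPM5 was thus within the range of the 10 lines that lack POU2F3, which was 0 to 4.47 FPKM.

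PLCG2, a phospholipase C isoform of tuft and B cells, was at 2.80 FPKM in parental NCI-H1048 against 61.8, 82 and 57.1 FPKM, and at 3.24 FPKM in sgNeg NCI-H1048 against 67.6, 107 and 46.5. NCI-H1048 was the low line in both sets (gap 3.48; limma log2 difference -4.14 ± 0.84 SE, adjusted p = 0.039). PLCB2, the phospholipase C of taste cells, was at 0.320 FPKM against 11.4, 79.8 and 6.32 in the parental set and at 0.459 FPKM against 6.84, 148 and 4.15 in the sgNeg set. The G protein subunit gene GNG13 was at 0.304 FPKM against 79.4, 27.4 and 10.5, and at 0.419 against 48.2, 16.6 and 17.0 (adjusted p = 0.026, limma). TAS1R3, a subunit of the sweet and umami receptors, was at 0.397 FPKM against 21.0, 44.6 and 5.88, and at 0.254 against 13.5, 74.8 and 11.9. These 3 genes were lower in NCI-H1048 than in any of the other lines, with gaps of 1.82, 3.14 and 2.30.

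Other parts of the cascade did not follow. ITPR3, the inositol trisphosphate receptor, was at 57 FPKM in parental NCI-H1048 against 2.83, 0.207 and 6.61 FPKM, and at 40.8 FPKM against 3.74, 0.674 and 2.73 in the sgNeg set, so NCI-H1048 was the high line (gap 2.93). RGS21, a regulator of G protein signaling, was also highest in NCI-H1048 by a small gap of 0.09. GNAT3, the taste G protein alpha subunit gustducin, was at 6.39 FPKM in parental NCI-H1048, between 51.4 FPKM in NCI-H211 and 0.121 FPKM in NCI-H526, and was within the range in both sets.

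Among the tuft cell genes outside the cascade, the kinase gene BMX was at 11.8 FPKM in parental NCI-H1048 against 151, 283 and 207 FPKM, and at 4.29 FPKM in sgNeg cells against 120, 201 and 210. ASCL2, a basic helix-loop-helix factor, was at 4.98 FPKM against 97.2, 187 and 125, and at 11.3 FPKM against 114, 243 and 186. Both were called lower (adjusted p = 0.00079 and 0.027, limma), and both were still above all 10 lines that lack POU2F3, which reached 0.259 FPKM for BMX and 4.04 FPKM for ASCL2. VIL1, which encodes the microvillus protein villin, was at 0.0746 FPKM against 10.2, 60.4 and 49.5, and at 0.0643 against 8.69, 31.9 and 95.8. SPIB, an ETS factor, was at 0.144 FPKM against 81.1, 14.5 and 6.56, and at 0.131 against 127.6, 34.1 and 14.8. The gaps of VIL1 and SPIB were 3.19 and 2.73.

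PTGS1, the cyclooxygenase that starts prostaglandin synthesis, was low in NCI-H1048 at 0.131 FPKM against 98.3, 5.76 and 38.3 FPKM, and at 0.486 FPKM against 138, 7.51 and 26.0 in the sgNeg set. ALOX5, the lipoxygenase that starts leukotriene synthesis, was high in NCI-H1048 at 132 FPKM against 32.9, 2.44 and 24.1, and at 104 FPKM against 33.9, 5.36 and 28.4. The 2 entry enzymes of eicosanoid synthesis thus lay on opposite sides, with gaps of 2.52 and 1.58. CHAT, the enzyme that makes acetylcholine, was at 0.0495 FPKM against 20.7, 10.6 and 5.81 in the parental set and at 0.0426 against 20.7, 16 and 4.76 in the sgNeg set.

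Several tuft cell genes stayed expressed in NCI-H1048. AVIL, which encodes the actin-binding protein advillin, was the lowest of the 4 lines (gap 1.3), but at 76.2 FPKM in parental and 55.0 FPKM in sgNeg cells it was above the 8.39 FPKM reached by the 10 other lines. GFI1B, a zinc finger repressor, was at 27.2 FPKM in parental NCI-H1048 against 79.1, 11.7 and 47.9, inside the range. RGS13 was at 69.1 FPKM against 508, 447 and 55.9, also inside the range, and was listed at 0 in all 10 other lines. NCI-H1048 thus had GFI1B, RGS13 and AVIL well above the lines that lack POU2F3, and TRPM5, VIL1, SPIB and PTGS1 within their ranges.

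Of the 6 tested genes of the POU2F family and its coactivators, C11orf53 and COLCA2, neighbours on chromosome 11 that encode coactivators of POU2F3, lay on opposite sides. C11orf53 was at 52.6 FPKM in parental NCI-H1048 against 341, 273 and 248 FPKM, and at 49.5 FPKM against 318, 373 and 271 in the sgNeg set. COLCA2 was at 233 FPKM against 26.9, 1.92 and 21.3, and at 204 FPKM against 33.9, 6.83 and 16.4. The gaps were 2.22 lower and 2.56 higher. COLCA1 and COLCA2 overlap on opposite strands and the library kit does not mark strand, so reads of the 2 genes cannot be told apart.

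**Figure D2:**
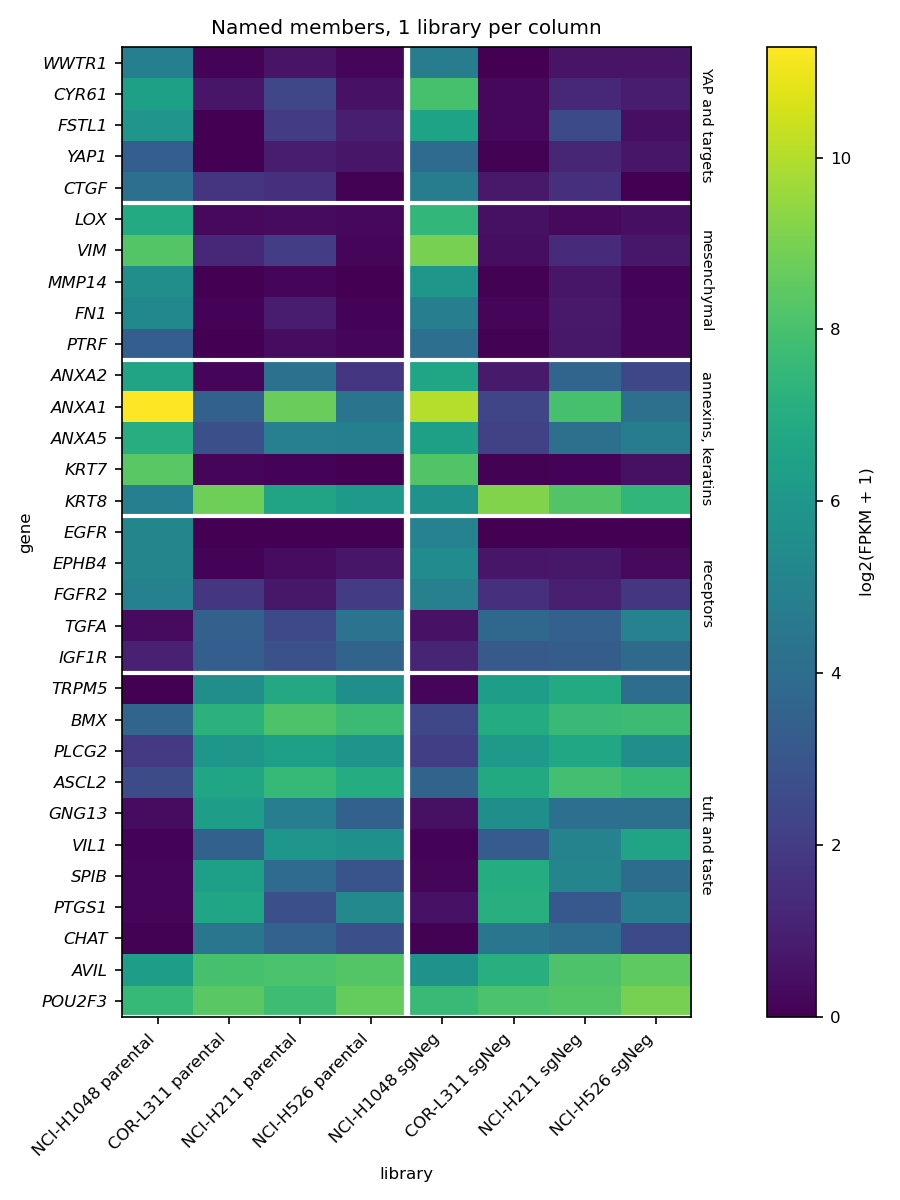
Heat map of log2(FPKM + 1), colour, for named genes (rows, in groups) in the 8 libraries (columns, parental left and sgNeg right of the white line). The first column of each set, NCI-H1048, is brighter than the other columns of its set for most genes of the upper groups. It is darker than them for most of the tuft and taste genes shown, but still bright for AVIL and POU2F3. Tuft and taste genes did not all follow: ITPR3 was higher in NCI-H1048, and GFI1B and RGS13 were inside the range in the parental set.

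YAP1 and some genes known as its targets were higher in NCI-H1048. YAP1 was at 9.39 FPKM in parental NCI-H1048 against 0, 0.824 and 0.594 FPKM, and at 14.6 FPKM in sgNeg cells against 0.0338, 1.33 and 0.588 (gap 2.51). Of the 10 lines that lack POU2F3, 9 were below NCI-H1048 and 1 was above it, at 33.7 FPKM. WWTR1, which encodes the YAP1 paralog TAZ, was at 28.2 FPKM against 0.0781, 0.519 and 0.136, and at 25.7 FPKM against 0.0169, 0.509 and 0.532 (gap 4.12). Of the 21 tested genes of the list of YAP1, TAZ, TEAD factors and targets, 12 were higher, 8 with a gap of at least 1, and 1 was lower. The median difference was 1.89 in the parental and 1.52 in the sgNeg set. Of the 12, 7 had passed the minimum only through NCI-H1048, so the count and the median are no support for the list. The lower gene was TEAD3 by 0.03, which did not hold in the sgNeg set after centring the columns on their median, and TEAD1, TEAD2 and TEAD4 lay within the range in at least 1 set.

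CYR61, a secreted matrix protein gene and a common readout of YAP1, was at 85.3 FPKM in parental NCI-H1048 against 0.626, 4.30 and 0.470 FPKM, and at 254 FPKM against 0.194, 1.43 and 0.859 in the sgNeg set. CTGF, a related matrix protein gene, was at 16.5 FPKM against 2.27, 1.85 and 0.0418, and at 26.5 FPKM against 0.719, 1.98 and 0. Both were highest in NCI-H1048, with gaps of 4.03 and 2.42. FSTL1 (gap 3.91), LATS2 (2.26), DOCK5 (1.38) and NUAK2 (1.36) were the other members with a gap of at least 1. ANKRD1, another common readout, was at 3.40 FPKM against 0, 0.701 and 0, and at 1.06 against 0, 0.163 and 0.

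The TEAD motif GGAATG was searched on both strands in promoter windows from RefSeq (build GRCh38.p14), which run from 250 bases before to 50 bases after a transcript start. Of the 13 list members outside the range, 11 had a window, and 7 of the 11 held the motif in at least 1 of their windows; 14% of all 35116 windows did. Several members have more than 1 window, which raises their chance of holding a match. The 7 of 11 counts genes and the 14% counts windows, so the shares are not alike. The list was made of genes known as YAP1 targets, so its matches are no result about NCI-H1048. The windows of CTGF and ANKRD1 are shown as those of 2 common readouts of YAP1, with matches in capitals; NUAK2 also has 2 matches and is not shown. CTGF (RefSeq symbol CCN2) has 3 matches, starting 169, 104 and 95 bases before the start, and ANKRD1 has 2, the first starting 220 bases before it. A match describes the sequence and does not show that a factor binds there.
CTGF, chr6:131951323-131951622, minus strand: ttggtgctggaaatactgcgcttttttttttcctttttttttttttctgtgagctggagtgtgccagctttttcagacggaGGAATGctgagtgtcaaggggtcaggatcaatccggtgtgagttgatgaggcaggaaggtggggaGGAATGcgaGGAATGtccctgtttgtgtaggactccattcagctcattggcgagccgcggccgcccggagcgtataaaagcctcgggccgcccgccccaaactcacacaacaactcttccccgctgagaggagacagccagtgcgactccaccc
ANKRD1, chr10:90921038-90921337, minus strand: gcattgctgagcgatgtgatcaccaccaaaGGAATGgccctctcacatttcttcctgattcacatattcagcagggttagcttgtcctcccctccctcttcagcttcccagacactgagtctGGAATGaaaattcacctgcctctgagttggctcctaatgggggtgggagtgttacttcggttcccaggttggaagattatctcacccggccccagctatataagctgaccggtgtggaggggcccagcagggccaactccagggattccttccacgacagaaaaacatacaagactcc

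The octamer ATGCAAAT, the motif that POU2F factors are known to bind, was searched in the same way. Of 21 tuft cell and taste genes outside the range, 15 had a window and 2 of them, BMX and ITPR3, held the octamer; 1.77% of all windows did. BMX was lower and ITPR3 higher in NCI-H1048. The 2 of 15 counts genes and the 1.77% counts windows. BMX has more than 1 window, and that at chrX:15500557-15500856 holds no match. The window shown belongs to another transcript start. Its match, 44 bases before that start, is in capitals.
BMX, chrX:15507058-15507357, plus strand: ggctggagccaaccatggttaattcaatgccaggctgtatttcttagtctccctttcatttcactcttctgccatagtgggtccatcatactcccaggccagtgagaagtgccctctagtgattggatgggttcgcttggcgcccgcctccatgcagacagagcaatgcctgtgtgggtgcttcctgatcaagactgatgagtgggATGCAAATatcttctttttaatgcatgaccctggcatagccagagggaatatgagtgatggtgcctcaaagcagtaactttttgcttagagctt

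Some mesenchymal genes were also higher in NCI-H1048. VIM, the intermediate filament vimentin, was at 305 FPKM in parental NCI-H1048 against 1.40, 3.09 and 0.154 FPKM, and at 507 FPKM in sgNeg cells against 0.335, 1.64 and 0.650 (gap 6.22). LOX, a collagen cross-linking enzyme, was at 120 FPKM against 0.237, 0.265 and 0.185, and at 179 FPKM against 0.410, 0.218 and 0.364 (gap 6.58). NCI-H1048 exceeded all 10 other lines for LOX, whose highest value there was 9.78 FPKM, and was below 1 of the 10 for VIM, which reached 2189 FPKM. Of 20 tested mesenchymal and caveolar genes, 11 were higher, 8 with a gap of at least 1, and 3 were lower, none with such a gap; the median difference was 1.70 in the parental and 1.84 in the sgNeg set. Of the 11, 6 had passed the minimum only through NCI-H1048, LOX, MMP14 and FN1 among them. The count and the median are thus no support for the list.

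The metalloproteinase MMP14 was at 46.8 FPKM in parental NCI-H1048 and at most 0.122 FPKM in the other 3 lines. FN1, fibronectin, was at 37.4 FPKM and at most 0.870. PTRF, a caveolar coat protein gene, was at 9.23 FPKM and at most 0.293. Members known as drivers or markers of epithelial-mesenchymal transition were split. ZEB2 and SNAI2 were higher (gaps 2.14 and 1.17), SNAI1 and CDH2 were lower by gaps of 0.47 and 0.45, and ZEB1 (0.0592 FPKM in parental NCI-H1048 against 0.134, 1.11 and 0.064) was not outside the range in both sets.

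Annexins are calcium-dependent membrane-binding proteins. ANXA1 was at 2498 FPKM in parental NCI-H1048 against 10.3, 414 and 19.3 FPKM, and at 1041 FPKM in sgNeg cells against 4.20, 253 and 17.0 (gap 2.04). NCI-H211 was the nearest line in both sets, and NCI-H1048 exceeded all 10 other lines, which reached 73.7 FPKM. ANXA2 (95.0 FPKM against 0.138, 17.3 and 2.47 in the parental set) and ANXA5 (131 FPKM against 5.83, 28.7 and 28.0) were also higher, with gaps of 2.39 and 1.66. Of 18 tested annexin and S100 genes 5 were higher, 4 with a gap of at least 1, and 2 were lower. Of the 5, 1 had passed the minimum only through NCI-H1048. The median difference was -0.22 in the parental and -0.25 in the sgNeg set, so the list did not lie to 1 side.

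Basement membrane and adhesion genes had the largest share of members with a gap of at least 1 among the lists with 10 or more tested members. Of 22 tested integrin, laminin and collagen IV genes, 14 were higher, 10 with such a gap, and 2 were lower; the median difference was 1.38 in the parental and 1.25 in the sgNeg set. Of the 14, 1 had passed the minimum only through NCI-H1048. The collagen IV chains COL4A1 and COL4A2, which are neighbouring genes, were at 28.9 and 51.9 FPKM in parental NCI-H1048. In the other 3 parental lines COL4A1 was at 0, 3.47 and 0.254 FPKM and COL4A2 at 0.0154, 9.91 and 0.929. LAMA4 (gap 2.29), LAMB1 (2.09) and ITGA1 (1.99), which encode 2 laminin chains and an integrin that binds collagen, followed. LAMA5, another laminin chain, was lower by a gap of 0.61.

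KRT7, a keratin of simple epithelium, was the gene with the largest gap on the higher side. It was at 342 FPKM in parental NCI-H1048 against 0.125, 0.0789 and 0 FPKM, and at 299 FPKM in sgNeg cells against 0.0541, 0.0642 and 0.40 (gap 7.74). The 10 other lines reached 63.0 FPKM. KRT8, another simple keratin, was the lowest of the 4 lines at 28.2 FPKM against 446.2, 96.9 and 66.0, and at 53 FPKM against 565, 300 and 169 (gap 1.20). The tight junction gene CLDN1 was high in NCI-H1048 (93.6 FPKM, at most 0.473 in the other 3 parental lines). ELF3, an epithelial ETS factor, was low (2.56 FPKM against 51.4, 41.4 and 35.2). KRT7 and CLDN1 passed the minimum only through NCI-H1048, so their values are descriptions.

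The homeobox genes DLX5, MSX2 and OTX2, which pattern the embryonic head and skeleton, were among the 15 genes with the largest gaps. DLX5 was at 297 FPKM in parental NCI-H1048 against 1.76, 0.291 and 1.22 FPKM, and at 489 FPKM against 0.332, 1.26 and 2.21. MSX2 was at 70.9 FPKM against 0, 0.0295 and 0.163, and at 135 FPKM against 0, 0 and 0.119. OTX2 was at 63.1 FPKM against 0, 0.0338 and 0.0470, and at 77.3 FPKM against 0.0463, 0 and 0.171. All 3 were chosen by the rule for lying outside the range, and the gaps were 6.75, 5.95 and 5.94. MSX2 and OTX2 passed the minimum only through NCI-H1048, so their values are descriptions. Among the 10 other lines DLX5 reached 248 FPKM and OTX2 708 FPKM.

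SOSTDC1, a secreted antagonist of BMP and Wnt signaling, was at 190 FPKM in parental NCI-H1048 against 1.01, 0.532 and 1.47 FPKM, and at 313 FPKM against 1.65, 0.462 and 4.06 (limma log2 difference 6.60 ± 0.63 SE, adjusted p = 5e-05). TFAP2B, a transcription factor of neural crest and kidney, was at 66.2 FPKM against 0.553, 0.0318 and 0.910, and at 96.1 FPKM against 0, 0 and 1.38. Both were at under 2 FPKM in all 10 other lines. DNER, a Notch ligand-like protein gene, was at 38.7 FPKM in parental NCI-H1048 and at most 0.0304 FPKM in the other 3 lines. C5orf58 was at 51.9 FPKM and at most 0.940, and PLA2G4D, a phospholipase A2, at 26.5 FPKM and at most 0.0552. TFAP2B, DNER, C5orf58 and PLA2G4D passed the minimum only through NCI-H1048, so their values are descriptions.

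**Figure D3:**
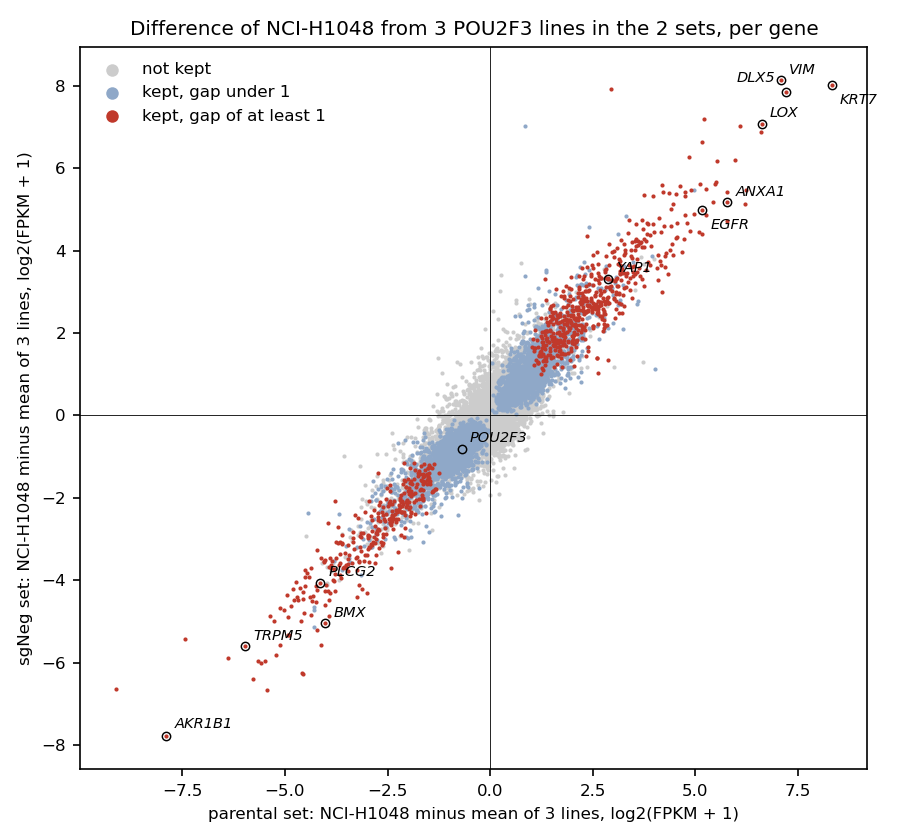
Each point is 1 of 13377 genes, with the difference of NCI-H1048 from the mean of COR-L311, NCI-H211 and NCI-H526 in the parental set (horizontal axis) and in the sgNeg set (vertical axis), both log2(FPKM + 1). Red points have a gap of at least 1 in both sets, blue points a smaller gap, and grey points were not outside the range in both sets; KRT7, VIM and DLX5 lie at the upper right and AKR1B1 and TRPM5 at the lower left.

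EGFR, the epidermal growth factor receptor, was at 35.2 FPKM in parental NCI-H1048 and was listed at 0 in the other 3 parental lines. In the sgNeg set it was at 30.9 FPKM against 0, 0 and 0.0111, and the 10 other parental lines reached 9.13 FPKM. TGFA, which encodes a ligand of this receptor, lay on the other side, at 0.265 FPKM in parental NCI-H1048 against 9.99, 4.60 and 18.7 FPKM, and at 0.456 FPKM against 12.5, 10.0 and 30.7. Of 21 tested receptor tyrosine kinase and ERBB ligand genes 7 were higher and 3 lower, 4 and 2 with a gap of at least 1. Over all genes tested 18.2% were higher and 17.5% lower, 4.01% and 2.33% with such a gap. Of the 7, 2 had passed the minimum only through NCI-H1048. They were EGFR and EPHB4, whose values are descriptions. The ephrin receptor EPHB4 and the FGF receptors FGFR2 and FGFR1 were higher (gaps 4.45, 3.02 and 1.27). IGF1R, the receptor of insulin-like growth factors, was lower at 1.07 FPKM against 9.44, 5.99 and 11.1 in the parental set and 1.23 against 8.01, 9.08 and 13.8 in the sgNeg set.

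In the list of the insulin-like growth factor axis, 7 of 13 tested genes were higher and 2 lower. In each direction 2 had a gap of at least 1. Of the 7, 2 had passed the minimum only through NCI-H1048. The binding protein gene IGFBP2 was at 202 FPKM in parental NCI-H1048 against 25.8, 0.0748 and 11.1, and at 272 FPKM against 0.716, 0.786 and 13.6 in the sgNeg set. IGFBP5 was also higher (gap 1.89), and IGF2BP3, which encodes an RNA-binding protein, was lower (gap 1.95). For IGFBP2, NCI-H1048 lay within the 110 to 645 FPKM of the 10 lines that lack POU2F3, unlike the other 3 POU2F3 lines in the parental set.

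Genes induced by ERK signaling were mostly higher. Of 17 tested members 12 were higher, 4 with a gap of at least 1, and 1 was lower; the median difference was 1.43 in the parental and 1.72 in the sgNeg set. Of the 12, 1 had passed the minimum only through NCI-H1048. IER3, an immediate early gene, was at 79.3 FPKM in parental NCI-H1048 against 2.44, 12.9 and 13.6 FPKM, and at 153 FPKM against 11.2, 19.7 and 14.7. EGR1, also an immediate early gene, was at 16.3 FPKM against 0.955, 3.0 and 0.437 in the parental set, and at 683 FPKM against 0.193, 8.55 and 0.958 in the sgNeg set. FOS was at 2.59 FPKM in parental and 413 FPKM in sgNeg NCI-H1048, while the other 3 lines had at most 1.33 and 2.73 FPKM. EGR1 and FOS were thus outside the range in both sets, but by far more in the sgNeg library; the part of handling at harvest in this was not tested. ETV4 and FOSL1 had gaps of 1.33 and 1.02.

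Interferon-responsive genes were higher for 10 of 22 tested members, 5 with a gap of at least 1, and lower for 2. Of the 10, 6 had passed the minimum only through NCI-H1048, so the count is no support for the list. IFITM1, a membrane protein that restricts viral entry, was at 15.2 FPKM in parental NCI-H1048 against 0, 0.116 and 0, and at 38.8 FPKM in sgNeg cells against 0 in all 3 other lines. IFITM3 was at 123 FPKM against 0.205, 14 and 10.0, and at 238 FPKM against 0.710, 20.0 and 25.6. IFITM genes are near-identical in places, so reads may be split between them. BST2, MX1 and IFI44 were higher (gaps 2.14, 1.44 and 1.32). ISG15, a ubiquitin-like protein of the same response, was lower at 11.7 FPKM in both sets, against at least 38.0 and 36.3 FPKM in the other lines. HLA-DRA, an MHC class II chain, was at 2.72 and 6.20 FPKM against at most 0.173 FPKM.

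Of 20 tested neuroendocrine genes 4 were lower and 2 higher, with a gap of at least 1 for 2 and 1 of them. Over all genes tested 17.5% were lower and 18.2% higher, so the counts of 4 and 2 do not set the list apart. The median difference was -1.99 in the parental and -1.85 in the sgNeg set. DLL3, an inhibitory Notch ligand, was at 1.52 FPKM in parental NCI-H1048 against 48.8, 19.1 and 37.8 FPKM, and at 2.92 FPKM against 40.7, 22.3 and 35.0. The 10 other lines had at least 6.90 FPKM, so NCI-H1048 was the lowest of 14 lines. SYT1, a synaptic vesicle protein gene, was lower (gap 2.05). NKX2-1, a lung lineage factor, was at 8.17 and 16.5 FPKM in NCI-H1048 and at most 0.166 FPKM in the other 3 lines, while the median of the 10 other lines was 59.4 FPKM.

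Among cell cycle regulators, RB1, the retinoblastoma gene, was at 1.71 FPKM in parental NCI-H1048 against 37.4, 9.22 and 14.2 FPKM, and at 1.91 FPKM against 23.1, 12.7 and 9.14 in the sgNeg set. In its list of CDK inhibitors, RB1 and cyclins 3 of 17 tested genes were higher and 4 lower, and RB1 was the 1 member with a gap of at least 1. Of 24 tested genes of the cell cycle list 5 were higher and 4 lower, none with a gap of at least 1. In the cholesterol list 5 of 22 tested genes were higher and 1 lower. Beside the 18.2% higher and 17.5% lower of all genes tested, these counts do not set the CDK, cell cycle and cholesterol lists apart. In the list of glucocorticoid response genes 6 of 14 tested genes were lower and 1 higher; HSD11B2 and SGK1 had gaps of 1.54 lower and 1.23 higher. Metallothioneins of that list, MT1X and MT2A, were lower (gaps 1.81 and 1.06), but in COR-L311 they differed widely between the sets, with MT2A at 1803 FPKM in parental and 90.1 FPKM in sgNeg cells.

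**Figure D4:**
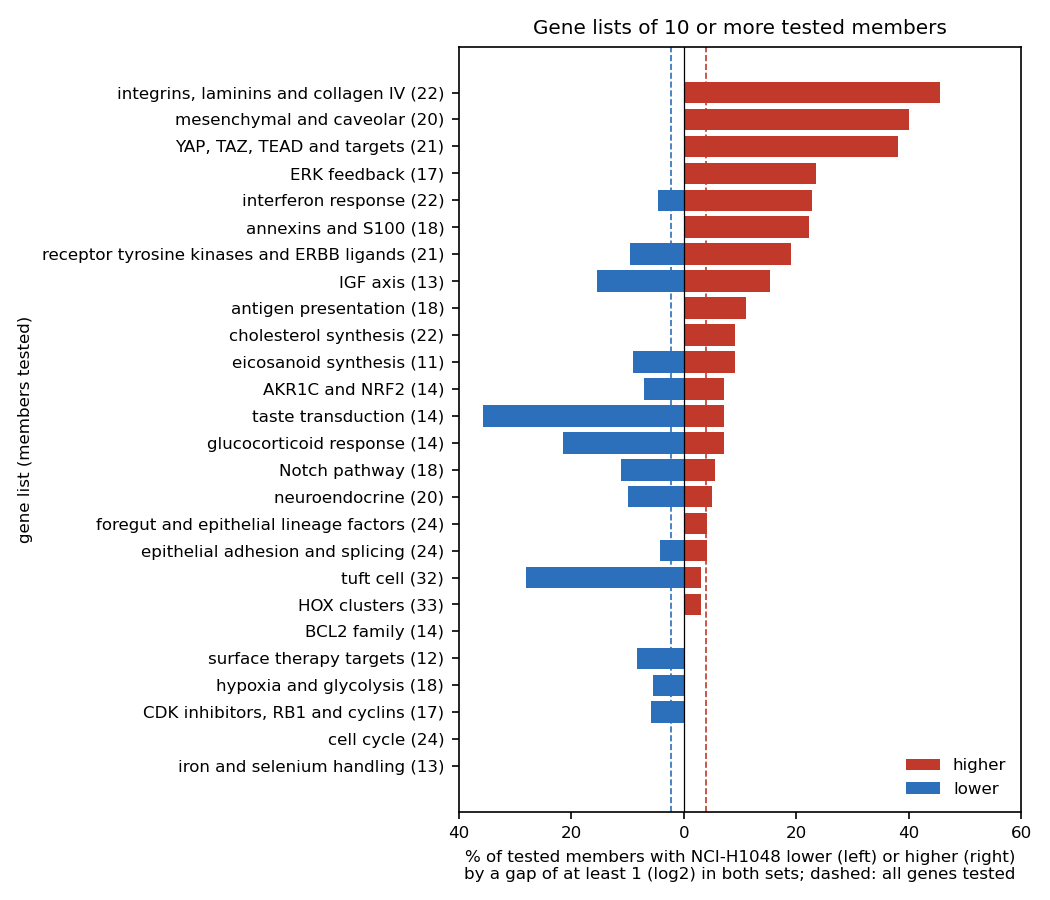
Share of tested members of each gene list with 10 or more tested members (vertical axis, number tested in brackets) with NCI-H1048 higher (right) or lower (left) by a gap of at least 1 in both sets, in percent. Dashed lines mark all genes tested, 4.01% higher and 2.33% lower. Among these, the lists of integrins, laminins and collagen IV, mesenchymal and YAP genes extend farthest right. The taste transduction and tuft cell lists extend farthest left. Of the genes above the range, 6 of 11 in the mesenchymal and 7 of 12 in the YAP list passed the minimum only through NCI-H1048.

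The genes with the largest gaps on the lower side were mostly outside these lists. AKR1B1, an aldose reductase, was listed at 0 in both NCI-H1048 libraries, against 383, 84.4 and 412 FPKM in the parental and 404, 52.2 and 496 FPKM in the sgNeg set. CBR1, a carbonyl reductase, was also listed at 0 in both, against 52.2, 44.3 and 43.7, and 86.1, 50.5 and 59.6 FPKM. Both were called lower (adjusted p = 0.00037 and 0.00033, limma). All 10 other lines had at least 43.1 FPKM of AKR1B1 and 23.8 FPKM of CBR1.

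FAM150A, which encodes a ligand of the kinases ALK and LTK, was listed at 0 in both NCI-H1048 libraries, against 72.6, 60.4 and 130 FPKM, and 56.6, 40.0 and 84.5 FPKM (limma log2 difference -6.39 ± 0.51 SE, adjusted p = 9.1e-06). The 10 lines that lack POU2F3 had at most 0.234 FPKM, so high FAM150A marked COR-L311, NCI-H211 and NCI-H526 among the 14 lines. The transcription factor TFCP2 was listed at 0, against at least 17.2 FPKM in the other 6 libraries and 13.4 FPKM in the 10 other lines (adjusted p = 0.00023, limma). TMEM101, MSANTD4 and DUSP23 were likewise called lower (adjusted p = 0.00017, 0.0013 and 0.02, limma). CHCHD5, PLEKHB1, ADGRG1, HLTF and ESPN completed the group, with gaps of 4.41, 4.83, 4.29, 4.16 and 4.09. ESPN, an actin-bundling protein of microvilli and stereocilia, was at 1.32 FPKM in parental NCI-H1048 against 62.8, 65.7 and 61.7 FPKM.

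Reads of 3 of the 15 lowest genes could be shared with near-identical copies, and their single values are uncertain. MAGEA3 was at 0.903 FPKM in parental NCI-H1048 against 94.2, 78.1 and 81.0 FPKM, and its copy MAGEA6 was at 0.842 FPKM against 91.0, 73.0 and 45.8. MT1G, a metallothionein, was listed at 0 in both NCI-H1048 libraries against 3059, 373 and 147 FPKM in the parental and 40.9, 102 and 222 FPKM in the sgNeg set. NCI-H1048 was below the other 3 lines for each of the 3 genes.

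The sgPOU2F3 columns, in which POU2F3 was targeted and 2 guides were combined into 1 deposited column per line, were not used to choose genes. They come from the same tables and lines as the sgNeg columns. Of the 536 genes higher by a gap of at least 1, 489 (91.2%) were above the range of the other 3 lines there as well, and of the 312 lower genes 308 (98.7%) were below it. Over all genes tested, 25.4% lay above and 25.1% below. No gene of either group lay on the opposite side. The sgNeg columns of the same lines helped to choose these genes, and 274 of the 536 passed the minimum only through NCI-H1048. Shares above those of all genes, and the absence of genes on the opposite side, are thus partly built in and are no support.

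TRPM5 in the sgPOU2F3 columns was at 0.0934 FPKM in NCI-H1048 against 26.1, 8.28 and 18.8 FPKM, and PLCG2 at 1.45 FPKM against 27.9, 9.62 and 22.7. Of the 12 lower tuft cell genes 10 were still below the range, a share near the 81.2% of all 2340 lower genes. Of the 12 higher genes of the YAP list 5 were still above the range, beside 81.7% of all 2431 higher genes; this difference was not tested. In NCI-H211 YAP1 was at 1.33 FPKM in the sgNeg and 56.0 FPKM in the sgPOU2F3 column, above the 27.6 FPKM of NCI-H1048, and CTGF was at 1.98 and 164 FPKM, the latter above the 77.0 FPKM of NCI-H1048. COR-L311 and NCI-H526 had at most 0.358 FPKM of YAP1 in their sgPOU2F3 columns.

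**Figure D5:**
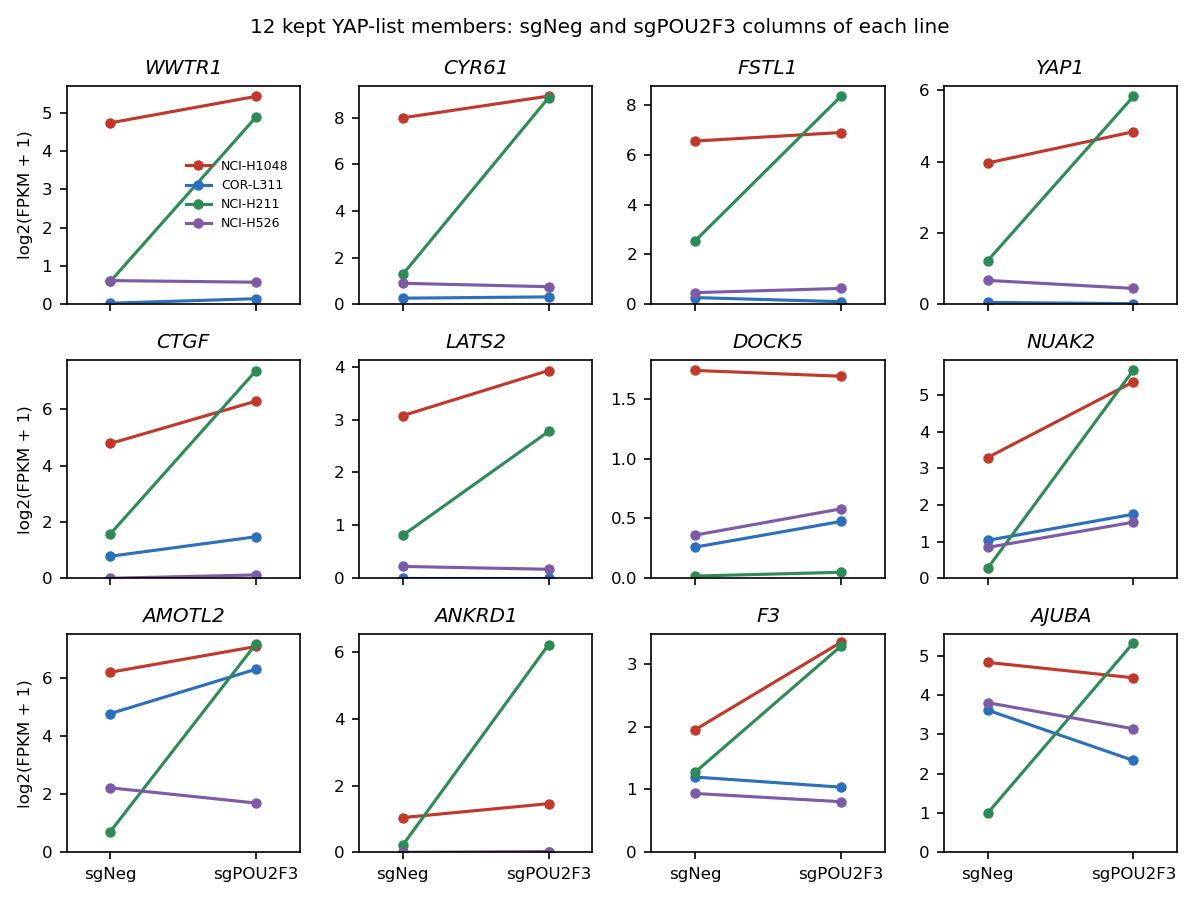
log2(FPKM + 1) (vertical axes, scaled per gene) of the 12 YAP-list genes that were higher in NCI-H1048, in the sgNeg and sgPOU2F3 columns of each line (horizontal axes), 1 column per point. In the sgPOU2F3 columns NCI-H211 reaches or passes NCI-H1048 for YAP1, FSTL1, CTGF, NUAK2, AMOTL2, ANKRD1 and AJUBA, while COR-L311 and NCI-H526 stay below NCI-H1048 in every panel.

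Set against the 10 parental lines that lack POU2F3, NCI-H1048 was higher than all 10 for 39.4% of the 536 higher genes and lower than all 10 for 47.8% of the 312 lower genes. Over all genes tested these shares were 8.35% and 7.17%. The parental NCI-H1048 values also chose the 536 and 312 genes, and 274 of the 536 passed the minimum only through NCI-H1048. Shares above those of all genes are thus partly built in and are no support. LOX, EGFR, KRT7 and SOSTDC1 were of the first kind and AKR1B1, CBR1, TFCP2 and DLL3 of the second. For DNER and NKX2-1 on the higher side, and for TRPM5 and SPIB on the lower side, NCI-H1048 lay within the range of the 10 lines.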

How the data were processed

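PolyA RNA of human small cell lung cancer lines was sequenced from TruSeq v2 libraries, per the labels' protocols, and the submitters' processing notes name TopHat2, Cufflinks, Cuffdiff and hg19, without versions. The authors deposited FPKM values: 1 table of 14 parental lines (19117 genes) and 4 knockout tables, 1 per line (19128 genes); 19102 genes are in all tables. The labels call the parental values RPKM. Here log2(FPKM + 1) was used. Genes needed at least 1 FPKM in at least 1 of 4 columns of each set. The parental table was fitted with limma 3.58.1 (R 4.3.3; trend; Benjamini-Hochberg adjustment over all genes tested; 2 residual degrees of freedom), tested on simulated data. The sgNeg columns got no test across tables. Nothing states that libraries are separate cultures. Depth was estimated with GENCODE release 29 transcript lengths and carries that estimate's error. Symbols were matched to RefSeq tables. The genes named are POU2F3, the 5 markers, the 15 with the largest gap in each direction, and per list up to 5 with a gap of at least 1, beside members given for their role; a few of these genes are not reported here. The members and lists were chosen with earlier results of these data known. Alternatives were other pseudocounts, filters and scalings, each line left out, and other fits.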

Additional observations from a re-analysis of the deposited data

How the results depend on the processing

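For 101 named genes, all outside the range in both sets, 6 alternatives were compared in 2 sets. They were pseudocount 0.1, quantile normalization, columns centred on their median, and each other line left out. Of 1212 differences 0 reversed, and 192 moved by at least 1 SD of the other 3 lines, 132 of them with pseudocount 0.1. Another pseudocount or a line left out cannot reverse a gene outside the range. Only quantile normalization and centring could have done so. Members given for their role, such as GNAT3 and ZEB1, are not among the 101. The limma fit of the parental table called 0 genes in both directions in every alternative, including each line left out (0 to 0), except that it called 46 higher and 24 lower with all 14 libraries in the fit and 143 higher and 5 lower without the filter; the cause of the latter was not tested. Genes outside the range in both sets numbered 3232 to 3525 higher and 3195 to 3664 lower when 1 of the other lines was left out, since fewer lines set a narrower range; the largest counts came without NCI-H211. With a gap of at least 1 these became 698 to 853 higher (most without NCI-H526) and 496 to 792 lower (most without NCI-H211). A gap of at least 2 left 188 and 123, and pseudocount 0.1 gave 510 lower genes. Of the 848 genes with a gap of at least 1, 778 remained after quantile normalization and 823 after centring. No paired analysis was possible because each line has 1 library per set and the labels number no replicates. With 1 NCI-H1048 library per set, spread within the line was not measured.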

Other observations

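In both NCI-H1048 libraries 23 genes were listed at 0 while the other 6 libraries had at least 5 FPKM, and 15 of the 23 were also listed at 0 in the sgPOU2F3 column of NCI-H1048. In the 10 other parental lines 9 of the 23 had at least 5 FPKM in every line. Besides AKR1B1, CBR1, FAM150A, DUSP23, CHCHD5, TFCP2 and MT1G, they include the DNA repair dioxygenase gene ALKBH3 (at least 9.59 FPKM in the other 6 libraries), the glutathione transferase gene GSTM4 (at least 11.4 FPKM) and the kinase gene STK26 (at least 5.33 FPKM). The genes named in this section were chosen after their values were seen.

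Among the genes with a gap of at least 1 and a RefSeq position, 193 of 844 stood next to another gene of the same direction among the genes tested, in 90 runs. The longest run on the higher side was P3H2, CLDN1, IL1RAP and CCDC50 on chromosome 3. RSRC1 and MLF1, neighbours on chromosome 3, were listed at 0 in both NCI-H1048 libraries, against at least 8.91 and 11.2 FPKM in the other 6. CHAT and SLC18A3, the neighbouring genes for acetylcholine synthesis and vesicular transport, were lower together. Neighbouring genes are not independent, and overlapping reads between them were not examined.

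The next 4 genes passed the minimum only through NCI-H1048, so their values are descriptions. VCAM1, a cell adhesion receptor, was at 53.8 FPKM in parental and 25.7 FPKM in sgNeg NCI-H1048, and at 0.0341 FPKM or less in the other 6 libraries. SPINK6, a protease inhibitor, was at 26.7 and 18.6 FPKM against at most 0.148 FPKM. TRIM22, an interferon-induced ubiquitin ligase, was at 18.2 and 23.0 FPKM against at most 0.0324 FPKM. The growth factor gene FGF7 was at 10.8 and 18.6 FPKM against at most 0.0217 FPKM.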
